A study of Mus musculus with 2 samples.

Results

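The BCL2 family of apoptosis regulators was followed in mouse foetal germ cells through 10 of its genes, namely Pmaip1, Bbc3, Bik, Bcl2l11, Bid, Bax, Bak1, Bcl2, Bcl2l1 and Mcl1. They were taken by symbol from the 42422 genes of the count table, as a list of family members chosen with earlier results of these data known. All 10 were present, and 9 passed the filter on low counts. Bak1 was left out by the filter. Germ cells came from E12.5 gonads of embryos with an Oct4-eGFP transgene (sires of 129svJT2 background, Swiss dams) and a wild-type genotype. XX gonads were taken at 0 h or cultured in vehicle (DMSO) until 24 h or 72 h. XY gonads were taken at 0 h or cultured until 24 h or 72 h in DMSO, in BGJ398, which blocks FGF receptors (FGFRi, 500 nM), or in PD0325901, which blocks MEK1/2 (MEKi, 500 nM). Every cultured gonad was kept with its mesonephros, which was removed before sorting, and the gonads of several embryos were pooled for each library. The sort kept GFP-positive cells and discarded dead cells that took up propidium iodide, so the values describe germ cells that were alive at the sort. Each of the 10 groups had 4 libraries.

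Proteins of this family decide whether the outer membrane of the mitochondrion is breached, the step that releases cytochrome c and commits a cell to intrinsic apoptosis. BAX and BAK1 form the pore, BCL2, BCL-XL (the product of Bcl2l1) and MCL1 hold them in check, and the BH3-only proteins NOXA (Pmaip1), PUMA (Bbc3), BIK, BIM (Bcl2l11) and BID relieve that restraint or act on the effectors. In the foetal gonad, loss of Bax leaves surplus germ cells, and BCL-XL is needed for germ cells to survive. Much of the control of these proteins is not at the level of RNA, which is all that was measured here.

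The 40 libraries held 1178953 to 5199153 counts each (median 2135128.5). Levels are in CPM, a count divided by the TMM-scaled size of its library, and counts were of molecules primed at the poly(A) tail. No level was compared between genes, and in bulk RNA fewer cells of a type and less RNA per cell cannot be told apart. Library preparation used 2 pools, each with 20 libraries. Pool 1 held the 0 h groups, the 24 h DMSO groups and 24 h MEKi, and pool 2 held 24 h FGFRi and every 72 h group. Comparisons of 72 h with 24 h in DMSO, and those of 24 h FGFRi with DMSO or MEKi at 24 h, cross the pools, and in all of them pool and group cannot be told apart. Between pools, 16 pairs of libraries shared a sample index. From Y-linked genes in XX libraries, the carried share was estimated at 3.25% of the partner's counts. The sum of germ cell markers was high in every group, at 2089 to 5640 CPM over 6 genes (Ddx4, Dazl, Pou5f1, Dppa3, Dnd1 and Mael). Single markers of this list differed between some groups. The sum was 6.39 to 79.3 CPM over 6 supporting cell markers, 6.08 to 57.3 CPM over 4 steroidogenic and interstitial cell markers, 5.16 to 126.5 CPM over 3 endothelial markers and 10.7 to 361 CPM over 5 blood cell markers.

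Pmaip1 (ENSMUSG00000024521, chromosome 18, 66591604 to 66598636, GRCm39), which encodes the MCL1-binding protein NOXA, had the largest ratio of highest to lowest group mean among the 9 members tested. In XY germ cells at 0 h the 4 libraries were at 37.3, 49.3, 42.8 and 48.6 CPM, a mean of 44.5 ± 5.6 (SD, n = 4). After 24 h in DMSO they were at 63.8, 64.6, 64.3 and 73.3 CPM. After 72 h in DMSO they were at 12.53, 14.2, 14.7 and 24.6 CPM. The 24 h libraries were thus all above the 0 h libraries, and both sets were above all 72 h libraries.

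XX germ cells had little Pmaip1 at any time. The levels were 0.70, 1.55, 1.16 and 1.67 CPM at 0 h, from 1 to 6 counts per library. They were 1.56, 1.42, 0.50 and 1.20 CPM after 24 h in DMSO. After 72 h they were 0.54, 2.58, 0 and 6.47 CPM, so that replicate 8, with 10 counts, held most of the signal of its group and replicate 7 had no count. The mean XX level was 2.86% of the XY level at 0 h, 1.76% at 24 h and 14.5% at 72 h. Without replicate 8 the XX mean at 72 h was 1.04 CPM, or 6.30% of the XY level. Y-linked genes, which XX cells lack, stood in the same XX libraries at 1.48%, 4.83% and 2.89% of their XY level, and at 3.19% at 24 h without XX replicate 6. The Pmaip1 share was thus above the Y-linked share at 0 h and 72 h and below it at 24 h. The carried share was estimated on XX libraries of pool 1, and the estimated counts were taken off pool 1 libraries only. In pool 2, which held the 72 h groups, 0 XX libraries had an XY partner.

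**Figure D1:**
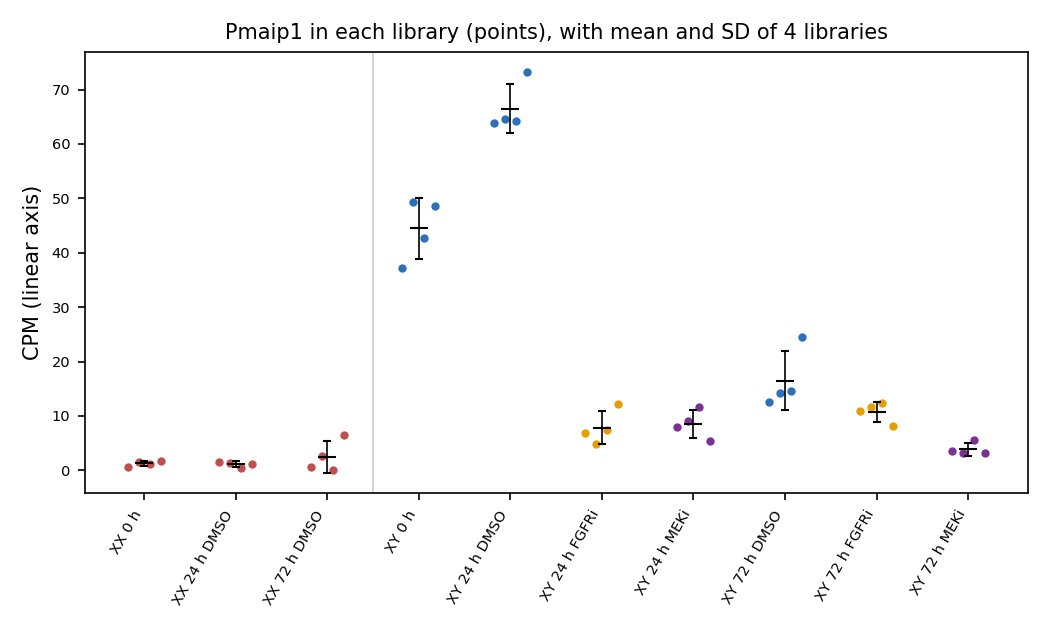
Pmaip1 level (CPM, linear axis) in each library, by group. Points are libraries, horizontal marks the mean and bars the SD of 4 libraries. XY 0 h and XY 24 h DMSO libraries lie between 37.3 and 73.3 CPM, and every other library is at 24.6 CPM or below.

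The sex comparison asks how XX and XY germ cells diverge. At 0 h, 1 of the 9 members tested was called, against 3% of the 15252 genes tested (FDR under 0.05 against a fold of 1.5, limma treat). It was Pmaip1, with a log2 difference of 4.89 (SE 0.418, FDR 9.91e-12 by limma), higher in XY. Leaving the estimated carried counts out gave 4.87. The libraries of XX and XY did not overlap for 4 of 9 members, against 21.4% of all genes tested, and the median log2 difference was -0.16 over the members and 0.03 over all genes. Of the members not called, Bax was at 74.1 to 86.0 CPM in XX and 102 to 138 CPM in XY libraries, without overlap. Its log2 difference was 0.60 (95% interval 0.37 to 0.83), close to the log2 of 1.5.

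After 24 h in DMSO, 2 of 9 members were called, both higher in XY, against 9.99% of all genes tested, and the libraries did not overlap for 4 of 9 (33.2% of all genes). Pmaip1 differed by 5.60 on the log2 scale (SE 0.490, FDR 9.66e-12 by limma), and by 6.17 without the carried counts. Bax, the pore-forming effector (ENSMUSG00000003873, chromosome 7, 45111015 to 45116325), was at 154, 130, 112 and 133 CPM in XY and at 57.2, 75.6, 70.4 and 69.5 CPM in XX libraries. No XX library reached an XY library, and the log2 difference was 0.97 (SE 0.127, FDR 0.022 by limma). The Bax call was lost without XX replicate 4 (FDR 0.145), without XY replicate 2 (FDR 0.0744) and with DESeq2 (FDR 0.0611). Bcl2, which encodes the founding anti-apoptotic protein of the family (ENSMUSG00000057329, chromosome 1, 106465908 to 106642060), was at 1.56, 2.08, 2.06 and 1.35 CPM in XY and 5.60, 7.56, 5.45 and 6.39 CPM in XX libraries. The groups were apart, but from 3 to 18 counts per library the log2 difference of -1.86 (SE 0.492) had an FDR of 0.0585 by limma. It passed in 3 of 16 alternatives, with edgeR glmTreat, against no change and with only the groups compared. Supporting cell markers summed to 6.39 to 14.6 CPM in XX and 17.5 to 79.3 CPM in XY libraries at 24 h. Of 5 tested, 1 was called, Sox9, higher in XY (log2 difference 2.64). Of 6 germ cell markers, Dppa3 (1.39) was called higher and Mael (-1.02) lower in XY. Their part in the differences of the members was not tested.

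After 72 h in DMSO, 3 of 9 members were called, all higher in XY, against 41.0% of all genes tested. The libraries did not overlap for 5 of 9 members, against 58.5% of all genes, so both shares of members were below those of all genes. The median log2 difference was 0.55 over the members and 0.10 over all genes. Pmaip1 differed by 3.05 on the log2 scale (SE 0.490, FDR 1.74e-05 by limma), and by 3.83 without XX replicate 8. Bik, a BH3-only gene (ENSMUSG00000016758, chromosome 15, 83411056 to 83428836), was at 5.82, 7.11, 6.66 and 8.63 CPM in XY and at 4.82, 2.58, 1.34 and 0 CPM in XX libraries. Every XY library was above every XX library, with a log2 difference of 2.14 (SE 0.628, FDR 0.0223 by limma). XX replicate 8, with no count, weighed on this value, and without it the difference was 1.09 (FDR 0.353 by limma). Without XX replicate 11 it was 2.92. The call was also lost with DESeq2 (FDR 0.0826). Of 6 germ cell markers, Dnd1 (log2 difference 4.46), Dppa3 (3.12) and Pou5f1 (2.88) were called higher in XY. Markers of other cells also differed between these groups. Those of supporting cells summed to 36.1 to 72.3 CPM in XX and 23.3 to 32.2 CPM in XY libraries, and 2 of 5 tested were called, both lower in XY, namely Foxl2 (log2 difference -3.69) and Wt1 (-1.93). Those of endothelial cells summed to 5.16 to 9.70 CPM in XX and 14.2 to 21.5 CPM in XY libraries, and 1 of 2 tested was called, Cdh5, higher in XY (4.44). Their part in the differences of the members was not tested.

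Bbc3, which encodes the p53-inducible BH3-only protein PUMA (ENSMUSG00000002083, chromosome 7, 16042318 to 16052130), had a sex difference that turned over. At 0 h it was at 3.51, 4.15, 2.67 and 5.49 CPM in XY and at 9.79, 8.50, 6.59 and 6.13 CPM in XX libraries, lower in every XY library but not called (log2 difference -0.76, 95% interval -1.53 to 0.01). After 24 h it was at 3.11, 0, 2.41 and 1.62 CPM in XY and at 9.96, 8.51, 2.97 and 3.19 CPM in XX libraries. After 72 h it was at 4.03, 5.85, 3.99 and 5.31 CPM in XY and at 1.07, 0, 4.68 and 2.59 CPM in XX libraries. The XX libraries thus stood above most XY libraries at 24 h and, with 1 exception, below them at 72 h.

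For Bbc3 the sex difference at 72 h less that at 24 h was 3.69 on the log2 scale (SE 0.823, FDR 0.00163 by limma). This interaction, from which a constant difference between pools cancels, was called in all 24 alternative fits, with values from 2.77, without XX 72 h DMSO replicate 4, to 4.18, without replicate 8 of that group. It was 3.06 with edgeR glmTreat and 3.10 with DESeq2. Neither component was as firm. The 24 h difference was -1.79 (SE 0.546, FDR 0.12 by limma), and it was called in 3 of 15 alternatives, with edgeR glmTreat, against no change and without XX replicate 9. The 72 h difference was 1.89 (SE 0.615, FDR 0.0472 by limma), and it was lost in 8 of 15 alternatives, among them those without XX replicate 4 (log2 0.98, FDR 0.446), XX replicate 11 (FDR 0.113), XY replicate 4 (FDR 0.087) and XY replicate 6 (FDR 0.0647), and with edgeR glmTreat (log2 1.29) and DESeq2 (log2 1.28). The counts behind it were 0 to 14 per library. Bik also went from lower to higher in XY, from a log2 difference of -0.74 at 0 h (95% interval -1.44 to -0.03, every XY library below every XX library) through 0.24 at 24 h to 2.14 at 72 h. Its change between 24 h and 72 h was 1.90 (SE 0.678, FDR 0.0962 by limma), called in 3 of 24 alternatives. Bid, lower in every XY library at 24 h (-0.54, 95% interval -0.85 to -0.22), was at 0.13 (-0.27 to 0.53) at 72 h, and the change was not called (FDR 0.664 by limma).

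Over the 9 members, 2 were called in the interaction of sex with 72 h against 24 h, against 26.1% of all genes tested. Pmaip1 was the other, with -2.55 (SE 0.693, FDR 0.0158 by limma), so that its XY excess was smaller at 72 h than at 24 h. Without XX 72 h DMSO replicate 8 this was -1.77 (FDR 0.182). In the interaction of sex with 24 h against 0 h, 0 of 9 members were called by limma treat, by edgeR glmTreat or by DESeq2, against 0.452% of all genes tested, and 1 member had an unadjusted p under 0.05. Tested by limma against no change, 0 of 9 had an FDR under 0.05, against 9.88% of all genes, and the lowest was 0.0726, for Bcl2.

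**Figure D2:**
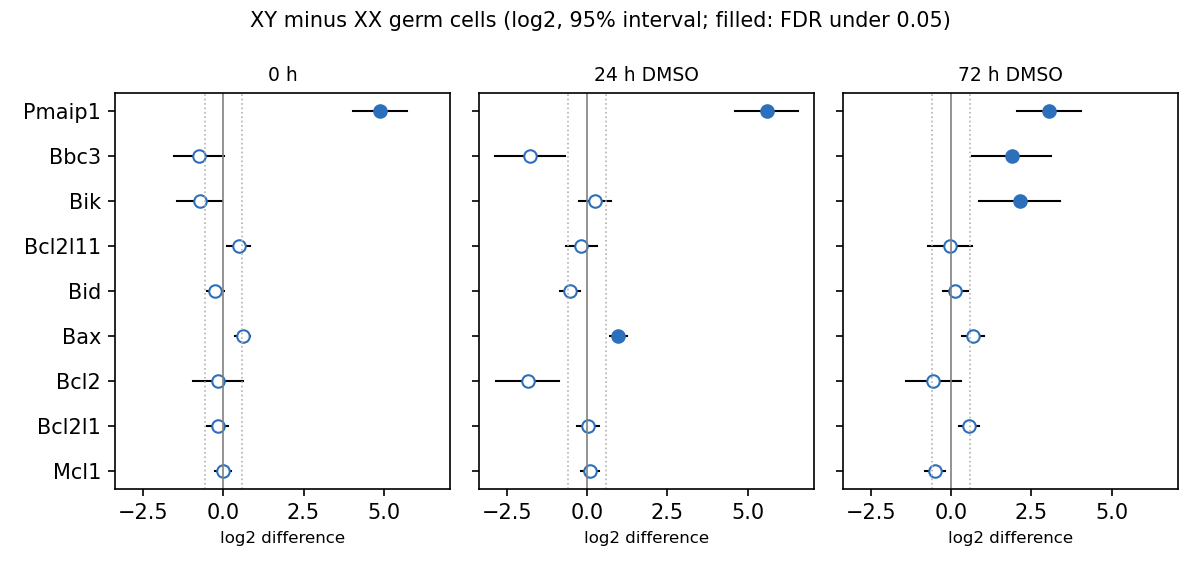
XY minus XX difference of each member tested (log2, horizontal axis) at 0 h, 24 h and 72 h, with its 95% interval. Filled points have an FDR under 0.05 against a 1.5-fold change (dotted lines). Pmaip1 stands to the right at each time, at 4.89, 5.60 and 3.05, and Bbc3 moves from -0.76 and -1.79 to 1.89.

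Culture in DMSO followed the members over time. From 0 h to 24 h in XY germ cells, 1 of 9 members was called, against 2.94% of all genes tested, and 4 of 9 had libraries that did not overlap (20.9% of all genes). Bik rose, from 8.34, 4.41, 4.46 and 8.23 CPM to 18.7, 24.5, 25.1 and 16.2 CPM. The groups did not overlap, and the log2 difference was 1.68 (SE 0.328, FDR 0.0294 by limma). That call was lost in 5 of 16 alternatives, with no filter on low counts (FDR 0.28) and without XY 0 h replicate 2 (FDR 0.0587) or 3 (FDR 0.495) or XY 24 h DMSO replicate 3 (FDR 0.0569) or 4 (FDR 0.0604). Pmaip1 was 1.49-fold higher at 24 h than at 0 h, with no library overlapping, and did not pass the test against 1.5-fold (FDR 1, limma treat). Against no change its FDR was 0.0015.

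In XX germ cells over the same 24 h, 0 of 9 members were called by limma treat, by edgeR glmTreat or by DESeq2, against 3.23% of all genes tested by limma treat, and 0 members had an unadjusted p under 0.05. For 2 of 9 the libraries did not overlap (27.7% of all genes). Against no change, 1 member had an FDR under 0.05, against 30.0% of all genes, and that was Mcl1 (log2 difference -0.43, FDR 0.0088 by limma). Bik was at 9.79, 9.65, 10.5 and 9.48 CPM at 0 h and at 10.6, 22.7, 14.9 and 18.4 CPM at 24 h. Each 24 h library was above each 0 h library, with a log2 difference of 0.71 (95% interval 0.14 to 1.28) that did not pass the test.

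From 24 h to 72 h in XY germ cells, 4 of 9 members were called, 1 higher and 3 lower, against 27.3% of all genes tested. The libraries did not overlap for 8 of 9 members, against 48.5% of all genes, and the median log2 difference was -0.70 over the members and 0.02 over all genes. These time points came from separate pools, and time cannot be told apart from pool. Pmaip1 fell by 2.14 on the log2 scale (SE 0.196, FDR 2.84e-09 by limma). Bax fell from 112 to 154 CPM at 24 h to 46.1, 47.2, 59.9 and 70.3 CPM at 72 h, a log2 difference of -1.31 (SE 0.130, FDR 5.45e-06). Bik fell back to 5.82 to 8.63 CPM, a log2 difference of -1.45 (SE 0.334, FDR 0.0261). The Bik call was lost with RLE normalization (FDR 0.0542) and without XY 72 h DMSO replicate 2 (FDR 0.0919), 4 (FDR 0.0587) or 5 (FDR 0.0546). Endothelial markers summed to 30.7 to 94.9 CPM at 24 h and 14.2 to 21.5 CPM at 72 h. Of the 2 tested, Pecam1, which foetal germ cells also express, was lower at 72 h (log2 difference -3.14) and Cdh5 higher (2.67). Steroidogenic and interstitial markers summed to 16.0 to 21.8 CPM at 24 h and 28.6 to 49.2 CPM at 72 h, and 1 of 3 tested was called, Pdgfra (2.38). Of 6 germ cell markers, Mael (2.72) and Ddx4 (1.20) were called higher at 72 h and Dppa3 (-1.155) lower. The part of these markers was not tested.

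Bcl2l1, which encodes the anti-apoptotic protein BCL-XL (ENSMUSG00000007659, chromosome 2, 152622582 to 152673655), rose over the same interval. It was at 60.7, 59.4, 46.1 and 43.8 CPM at 24 h and at 116, 95.7, 108 and 113 CPM at 72 h. All 72 h libraries were above all 24 h libraries, and the log2 difference was 1.12 (SE 0.153, FDR 0.00262 by limma). The call was lost with no filter on low counts (FDR 0.0603) and without XY 24 h DMSO replicate 5 (FDR 0.101).

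The FGFRi groups gave the same interval within pool 2. In XY germ cells kept in FGFRi, 3 of 9 members were called between 24 h and 72 h, against 33.5% of all genes tested, and the libraries of 6 of 9 did not overlap (55.9% of all genes). Bax was at 164, 148, 144 and 146 CPM at 24 h and at 49.1, 50.7, 55.7 and 63.8 CPM at 72 h, a log2 difference of -1.50 (SE 0.119, FDR 3.88e-09 by limma). Bik fell by 1.56 (SE 0.243, FDR 0.000523), and Bcl2l1 rose by 1.19 (SE 0.170, FDR 0.00192). All 3 were called in each of 16 alternatives. Bcl2 was at 0, 0.81, 2.30 and 0.53 CPM at 24 h and at 3.38, 4.29, 4.25 and 3.45 CPM at 72 h, without overlap, and just missed the threshold (log2 difference 1.87, FDR 0.0504 by limma), passing it in 9 of 15 alternatives. Pmaip1, already low at 24 h in FGFRi, differed by 0.47 (95% interval -0.17 to 1.11). Endothelial markers summed to 36.5 to 63.6 CPM at 24 h and 12.9 to 16.4 CPM at 72 h, and steroidogenic and interstitial markers to 6.08 to 19.5 CPM at 24 h and 23.2 to 32.0 CPM at 72 h. Over the lists of other cells, Pdgfra (log2 difference 3.02), Star (2.31), Cdh5 (2.64) and Fst (2.06) were called higher at 72 h, and Pecam1 (-2.81), Hbb-y (-5.72) and Foxl2 (-2.41) lower. Of 6 germ cell markers, 2 were called higher at 72 h and 3 lower, among them Mael (2.56), Dppa3 (-2.205) and Dazl (-1.075). The part of all these markers was not tested.

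From 24 h to 72 h in XX germ cells, 3 of 9 members were called, all lower, against 22.2% of all genes tested. This comparison also crosses the pools. The libraries of 4 of 9 members did not overlap, against 45.3% of all genes, and the median log2 difference was -0.91 over the members and -0.10 over all genes. Bik went from 10.6, 22.7, 14.9 and 18.4 CPM to 4.82, 2.58, 1.34 and 0 CPM, a log2 difference of -3.34 (SE 0.590, FDR 0.000117 by limma) that was called in all 16 alternatives. Its size was less stable, at -2.27 without XX 72 h DMSO replicate 8, which had no count, -4.13 without replicate 11 and -2.71 with DESeq2. Bax went from 57.2 to 75.6 CPM to 38.0, 28.9, 24.8 and 38.2 CPM, a log2 difference of -1.02 (SE 0.169, FDR 0.0323). It was lost in 8 of 16 alternatives, 5 of which left out a library (XX 24 h DMSO replicate 5 or 9, or XX 72 h DMSO replicate 4, 7 or 8, with FDR from 0.0511 to 0.152). Bbc3 fell by 2.14 (SE 0.607, FDR 0.0324), and the call was lost in 6 of 15 alternatives, with a log2 difference of -1.20 (FDR 0.387) without XX 72 h DMSO replicate 4. Without XX 24 h DMSO replicate 4 or 5 or XX 72 h DMSO replicate 11 the FDR of Bbc3 was 0.0828, 0.0634 and 0.0901. In XX libraries the summed level of 6 supporting cell markers was 6.39 to 14.6 CPM at 24 h and 36.1 to 72.3 CPM at 72 h, and that of 3 endothelial markers was 59.96 to 109 CPM at 24 h and 5.16 to 9.70 CPM at 72 h. That of 4 steroidogenic and interstitial markers was 8.98 to 17.8 CPM at 24 h and 36.1 to 56.3 CPM at 72 h, with Nr2f2 called (log2 difference 2.48). Of 6 germ cell markers, 1 was called higher at 72 h and 3 lower. The lower ones were Dnd1 (-3.01), Dppa3 (-2.89) and Pou5f1 (-2.735). Their part in these differences was not tested.

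Bax and Bik were the members called lower at 72 h than at 24 h in each of XX DMSO, XY DMSO and XY FGFRi germ cells, although the XX call of Bax was lost in 8 of 16 alternatives. Bcl2l11 was also lower in every 72 h library of each, by log2 differences of -0.92 in XX DMSO (FDR 0.37 by limma treat), -0.77 in XY DMSO (FDR 0.569) and -0.64 in XY FGFRi (FDR 0.719), and was called in none. For the called genes, Bax and Bik, the 250 bases before the annotated start are shown (GRCm39, GENCODE M39 gene limits, 5′ to 3′ on the strand of the gene, no annotated exon inside). The Bax sequence is chr7:45116326-45116575 on the minus strand and the Bik sequence chr15:83410806-83411055 on the plus strand. Capitals mark GGGCGG (the GC box), CACGTG (the E-box) and CCAAT, read on both strands.
Bax: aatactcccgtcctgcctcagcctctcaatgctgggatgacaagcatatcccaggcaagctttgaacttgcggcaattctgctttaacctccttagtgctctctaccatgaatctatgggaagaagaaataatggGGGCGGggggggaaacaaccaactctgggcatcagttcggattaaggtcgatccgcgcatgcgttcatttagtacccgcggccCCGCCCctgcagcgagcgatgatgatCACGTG
Bik: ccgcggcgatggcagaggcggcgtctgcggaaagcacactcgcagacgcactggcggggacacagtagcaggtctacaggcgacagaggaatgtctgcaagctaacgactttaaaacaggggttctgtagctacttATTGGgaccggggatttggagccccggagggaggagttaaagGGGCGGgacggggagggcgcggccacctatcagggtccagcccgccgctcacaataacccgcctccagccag
Of 9 members searched in such windows (all but Pmaip1), GGGCGG was in 6, compared with 29.9% of the windows of 21770 protein-coding genes. Bax held it at 2 places and Bik at 1. CACGTG was in 2 members, Bax and Bid (5.69% of all windows), and CCAAT in 3, Bik, Bid and Bcl2l11 (36.1%). The ETS core CCGGAA was in 2 members, Bcl2l11 and Mcl1 (10.6%), and the E2F motif GCGGGAA was in 0 (4.01%). GGGCGG was thus in both windows, CACGTG in that of Bax and CCAAT in that of Bik. Windows of this length leave out most regulatory sequence of a gene.

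The inhibitor comparisons ask which changes in XY germ cells follow a block of FGF receptors or of MEK1/2. At 24 h, Pmaip1 was the member called. It was at 7.89, 9.03, 11.6 and 5.48 CPM with MEKi and at 6.95, 4.89, 7.46 and 12.1 CPM with FGFRi. All 8 inhibitor libraries were far below the lowest DMSO library, at 63.8 CPM. With MEKi, within pool 1, 1 of 9 members was called, against 0.164% of all genes tested, and the log2 difference was -3.03 (SE 0.256, FDR 1.25e-09 by limma). The libraries of 2 of 9 members did not overlap with DMSO (10.5% of all genes). With FGFRi, which crosses the pools, 1 of 9 was called, against 0.262% of all genes tested, and the log2 difference was -3.10 (SE 0.292, FDR 1.9e-08). The libraries of 2 of 9 did not overlap (10.7% of all genes). The call for each inhibitor held in all 16 alternatives. The comparisons share their DMSO libraries.

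Set against each other at 24 h, MEKi and FGFRi gave 0 called members by limma treat, edgeR glmTreat and DESeq2, against 0.105% of all genes tested by limma treat. An unadjusted p was under 0.05 for 1 member, and 0 of 9 had an FDR under 0.05 against no change (4.27% of all genes). The libraries of 1 of 9 did not overlap (9.74% of all genes). For Pmaip1 the difference was 0.07 on the log2 scale (95% interval -0.66 to 0.80), which spans a 1.5-fold difference in either direction. The pools differ in this comparison too. Blood cell markers summed to 129 to 361 CPM in 24 h MEKi libraries. The sum was 18.9 to 91.3 CPM in 24 h DMSO and 45.6 to 58.2 CPM in 24 h FGFRi libraries. Of 3 tested, Hbb-y was called higher with MEKi than in DMSO (log2 difference 3.545, FDR 0.00545 by limma). For MEKi against FGFRi 0 were called. Against no change all 3 had an FDR under 0.05 in both comparisons. The part of these markers in the Pmaip1 values was not tested.

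With either inhibitor no other member passed against DMSO at 24 h, by limma treat, edgeR glmTreat or DESeq2. Bik, the nearest, was at 36.7, 23.9, 29.1 and 38.3 CPM with MEKi and at 25.2, 40.7, 34.4 and 29.5 CPM with FGFRi, against 18.7, 24.5, 25.1 and 16.2 CPM in DMSO. The log2 difference was 0.75 (95% interval 0.31 to 1.19) for MEKi and 0.76 (0.29 to 1.22) for FGFRi. FGFRi libraries were all above the DMSO libraries, and 1 MEKi library was not. Bcl2l1 was at 29.3, 34.5, 36.5 and 32.9 CPM with MEKi, below every DMSO library, with a log2 difference of -0.59 (-0.97 to -0.21). For Bax, the interval with MEKi was -0.20 to 0.26 and with FGFRi -0.06 to 0.40, both within 1.5-fold. For Mcl1, which encodes the main binding partner of NOXA, they were -0.29 to 0.25 and -0.27 to 0.29.

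At 72 h all inhibitor and DMSO libraries were in pool 2. With MEKi, 2 of 9 members were called, 1 higher and 1 lower, against 9.12% of all genes tested. The libraries of 6 of 9 did not overlap with DMSO, against 38.3% of all genes, and the median log2 difference was 0.44 over the members and 0.01 over all genes. Pmaip1 was at 3.47, 3.22, 5.55 and 3.13 CPM, below the DMSO libraries at 12.53 to 24.6 CPM, with a log2 difference of -1.86 (SE 0.290, FDR 0.000798 by limma). It was called in all 16 alternatives. Bik was at 15.9, 23.8, 23.0 and 19.6 CPM, above the DMSO libraries at 5.82 to 8.63 CPM, with a log2 difference of 1.62 (SE 0.317, FDR 0.014). Pmaip1 and Bik, both BH3-only genes, thus moved in opposite directions under the same inhibitor. The Bik call was lost with no filter on low counts (FDR 0.0989) and without XY 72 h DMSO replicate 2 (FDR 0.0819) or XY 72 h MEKi replicate 4 (FDR 0.0566). Over the marker lists of other cells, Cdh5 was called with MEKi at 72 h (log2 difference -2.54), and of 6 germ cell markers Dnd1 (-1.25) and Mael (-1.07) were lower. Their part in the differences of the members was not tested.

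Bbc3 was at 1.49, 3.04, 2.18 and 3.13 CPM with MEKi at 72 h, from 3 to 17 counts per library, each below the DMSO libraries at 3.99 to 5.85 CPM. Its log2 difference was -0.95 (95% interval -1.84 to -0.07), not called (FDR 0.8 by limma). A further BH3-only gene, Bcl2l11 (ENSMUSG00000027381, chromosome 2, 127967958 to 128004476), encodes BIM, a protein that ERK phosphorylation marks for degradation. It was at 18.4, 23.1, 20.4 and 16.9 CPM with MEKi at 72 h and at 8.06, 7.94, 7.99 and 9.95 CPM in DMSO. The MEKi libraries were all above the DMSO libraries, with a log2 difference of 1.24 (SE 0.255) that missed the threshold (FDR 0.0631 by limma). It passed with edgeR glmTreat, with limma against no change and without XY 72 h MEKi replicate 5. Bcl2l1 was at 81.4, 47.8, 57.9 and 75.6 CPM with MEKi, below the DMSO libraries at 95.7 to 116 CPM. Its log2 difference was -0.83 (95% interval -1.10 to -0.56), not called (FDR 0.239). Bax was at 98.3, 69.3, 84.8 and 86.6 CPM with MEKi and at 46.1 to 70.3 CPM in DMSO, overlapping by 1 library in each group, with a log2 difference of 0.62 (0.37 to 0.88), also not called. Mcl1 was at 63.1 to 77.7 CPM with MEKi and 39.3 to 59.7 CPM in DMSO, with a log2 difference of 0.53 (0.25 to 0.81).

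With FGFRi at 72 h, 0 of 9 members were called by limma treat, edgeR glmTreat or DESeq2, against 0.00656% of all genes tested by limma treat. An unadjusted p was under 0.05 for 1 member, and 0 of 9 had an FDR under 0.05 against no change (1.08% of all genes). The libraries of 2 of 9 did not overlap (6.71% of all genes). Pmaip1 was at 10.8, 11.6, 12.4 and 8.19 CPM, each library below the lowest DMSO library at 12.53 CPM. The log2 difference of -0.49 had an interval of -0.96 to -0.03. Bbc3 was also lower in each FGFRi library, at 2.37, 1.26, 0.77 and 2.15 CPM, with a log2 difference of -1.47 (-2.47 to -0.48) that did not pass the test.

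In the direct comparison at 72 h, 1 of 9 members was called, against 12.7% of all genes tested, and the libraries of 5 of 9 did not overlap (43.3% of all genes). Pmaip1 was lower with MEKi than with FGFRi in every library, with a log2 difference of -1.37 (SE 0.281, FDR 0.0325 by limma). It was lost in 5 of 16 alternatives, with no filter on low counts (FDR 0.239) and without XY 72 h FGFRi replicate 2 (FDR 0.0651) or XY 72 h MEKi replicate 2 (FDR 0.0648), 3 (FDR 0.139) or 5 (FDR 0.0547). Bcl2l11 was also apart, at 9.05 to 12.4 CPM with FGFRi and 16.9 to 23.1 CPM with MEKi (log2 difference 0.89, 95% interval 0.50 to 1.28), and was not called. Between the same groups, Nr2f2 was called higher (1.94) and Cdh5 (-1.92), Dnd1 (-1.34) and Mael (-1.01) lower with MEKi, and the part of these markers in this and other differences between MEKi and FGFRi at 72 h was not tested.

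The change of each inhibitor effect between 24 h and 72 h was tested as an interaction. For FGFRi, 1 of 9 members was called, against 0.0328% of all genes tested. Pmaip1 had a value of 2.61 (SE 0.374, FDR 0.00386 by limma), called in all 24 alternatives, and a pool difference does not cancel in it. For MEKi, 0 of 9 members were called by limma treat, edgeR glmTreat or DESeq2, against 1.89% of all genes tested by limma treat, and 0 members had an unadjusted p under 0.05. Against no change 3 members had an FDR under 0.05 by limma, against 23.2% of all genes. They were Pmaip1 at 1.17 (FDR 0.0225), Bax at 0.59 (FDR 0.00778) and Mcl1 at 0.55 (FDR 0.0319). In the same MEKi interaction the blood cell marker Hba-a1 (-2.95, FDR 0.0166 by limma treat) and the germ cell marker Dnd1 (-1.21, FDR 0.0383) were called. The part of these markers was not tested.

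**Figure D3:**
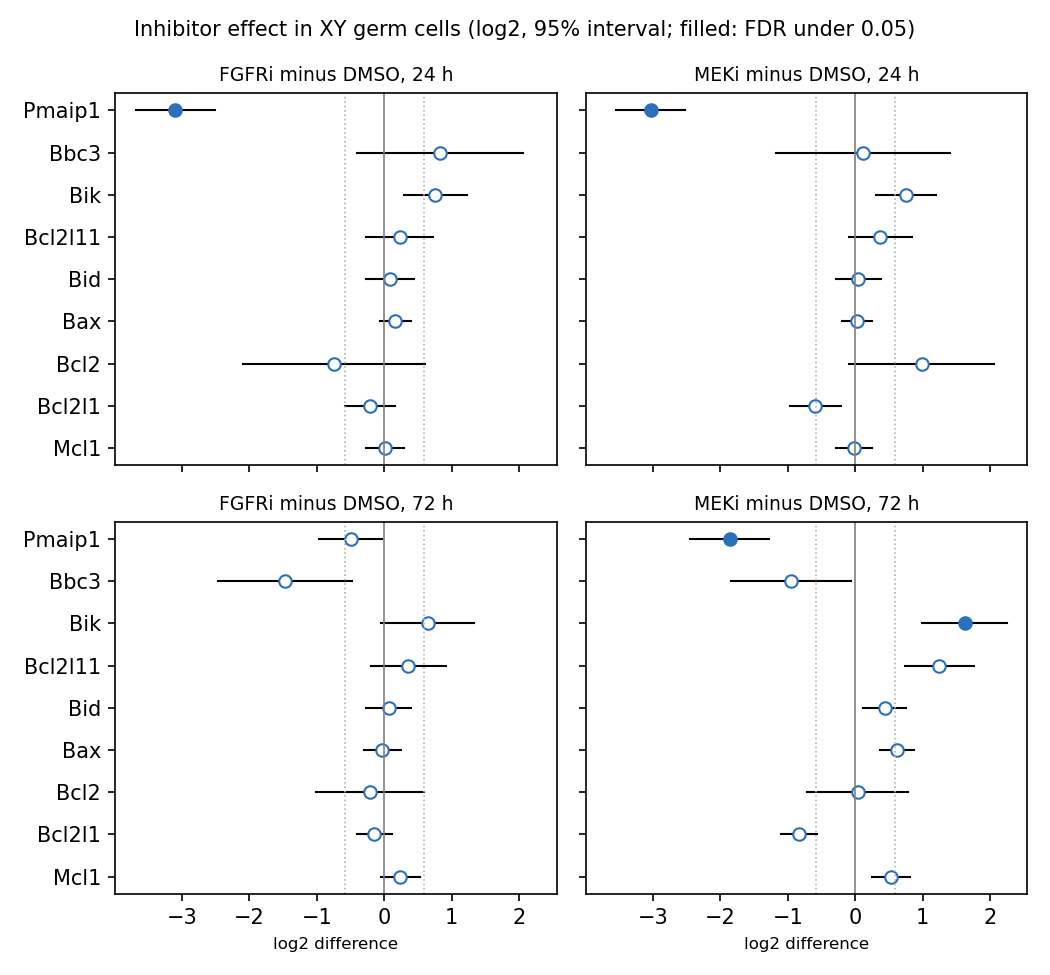
Inhibitor minus DMSO difference in XY germ cells (log2, horizontal axis) for each member tested, with its 95% interval, at 24 h (top) and 72 h (bottom). Filled points have an FDR under 0.05 against a 1.5-fold change (dotted lines). At 24 h Pmaip1 alone is filled, at -3.10 for FGFRi and -3.03 for MEKi. At 72 h with MEKi, Pmaip1 is at -1.86 and Bik at 1.62.

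Ordered by mean, the Pmaip1 levels ran from XY 24 h DMSO (66.5 CPM) and XY 0 h (44.5) through XY 72 h DMSO (16.5), XY 72 h FGFRi (10.8), XY 24 h MEKi (8.51), XY 24 h FGFRi (7.86) and XY 72 h MEKi (3.85) to XX 72 h DMSO (2.40), XX 0 h (1.27) and XX 24 h DMSO (1.17). The libraries of each of the first 3 groups in this order did not overlap with those of the next. From XY 72 h FGFRi downwards, every neighbouring pair overlapped.

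Bid, Mcl1, Bcl2l11 and Bcl2 were called in no comparison by limma treat. With edgeR glmTreat, Bid passed from 24 h to 72 h in XX (log2 difference -0.87, FDR 0.0483), Bcl2l11 passed for MEKi against DMSO at 72 h (FDR 0.0134), and Bcl2 passed between the sexes at 24 h (FDR 0.0109) and from 24 h to 72 h in XY DMSO (FDR 0.043) and XY FGFRi (FDR 0.019). Bid (ENSMUSG00000004446, chromosome 6, 120862525 to 120894171), whose protein carries the death receptor signal to mitochondria, had group means between 21.5 CPM in XX 72 h DMSO and 49.9 CPM in XX 0 h. Bid overlaps Bcl2l13, a family member on the opposite strand with 3661 counts over all libraries against 3078 for Bid, and counting used the strand, per the study's code. Mcl1 (ENSMUSG00000038612, chromosome 3, 95566026 to 95570487) had group means between 50.3 CPM in XY 72 h DMSO and 102 CPM in XX 0 h. Its lowest FDR by limma treat was 0.505, from 24 h to 72 h in XY DMSO (log2 difference -0.70, 95% interval -0.99 to -0.40). Bcl2l11 had group means between 8.49 CPM in XY 72 h DMSO and 28.5 CPM in XY 0 h. Bak1, the second effector (ENSMUSG00000057789, chromosome 17, 27238784 to 27247983), had 76 counts over all 40 libraries, at most 6 in any, and no fold is given for it. It overlaps Ggnbp1, which had 785 counts on the opposite strand.

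**Figure D4:**
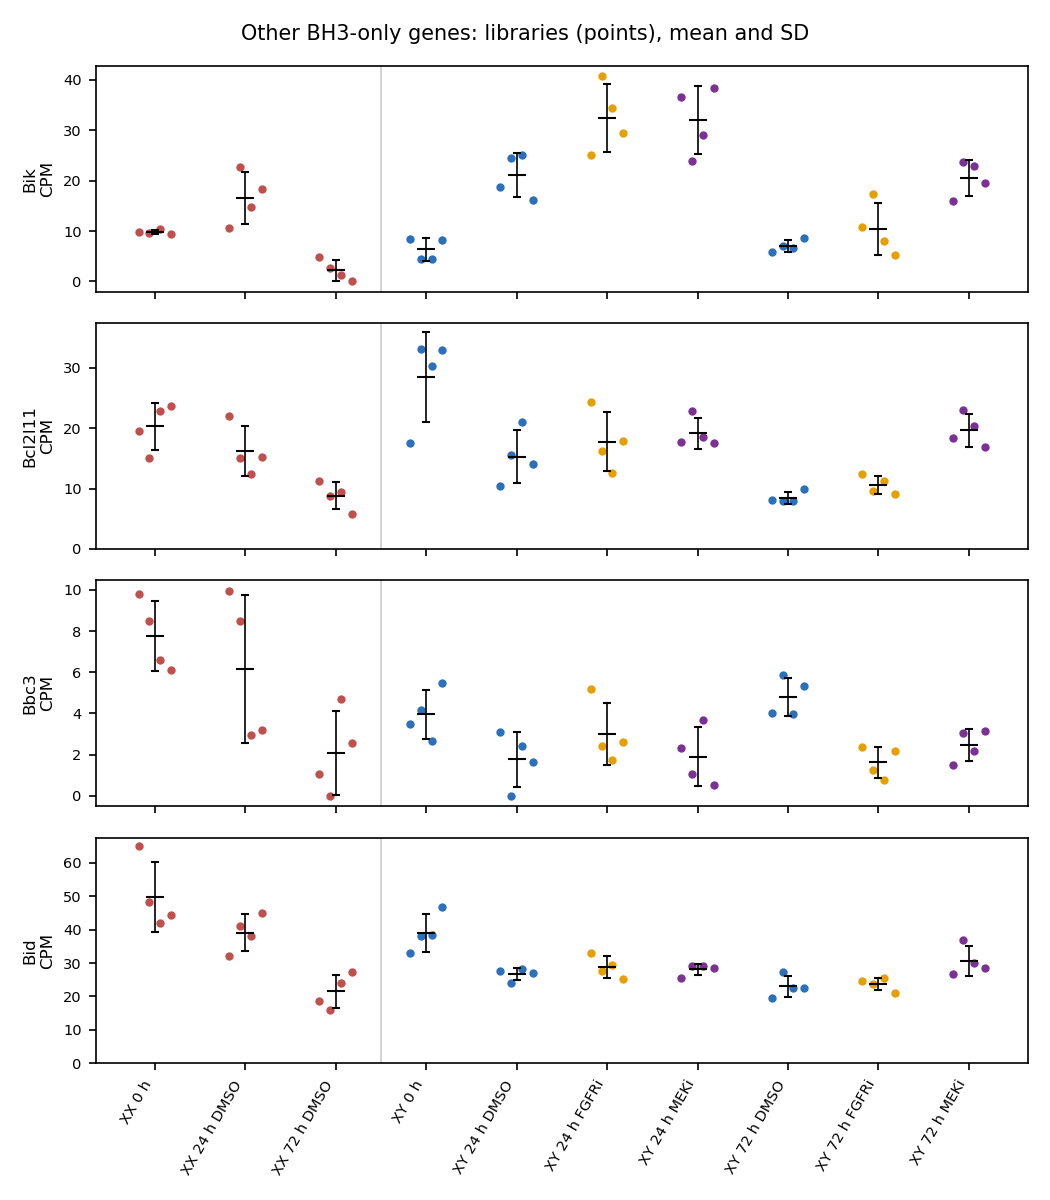
Levels of Bik, Bcl2l11, Bbc3 and Bid (CPM, linear axes) in each library, by group, with mean and SD of 4 libraries. The means of Bik are highest in XY 24 h FGFRi (32.5 CPM) and XY 24 h MEKi (32.0 CPM). At 72 h Bik is at 15.9 to 23.8 CPM in XY MEKi and 5.82 to 8.63 CPM in XY DMSO libraries.

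**Figure D5:**
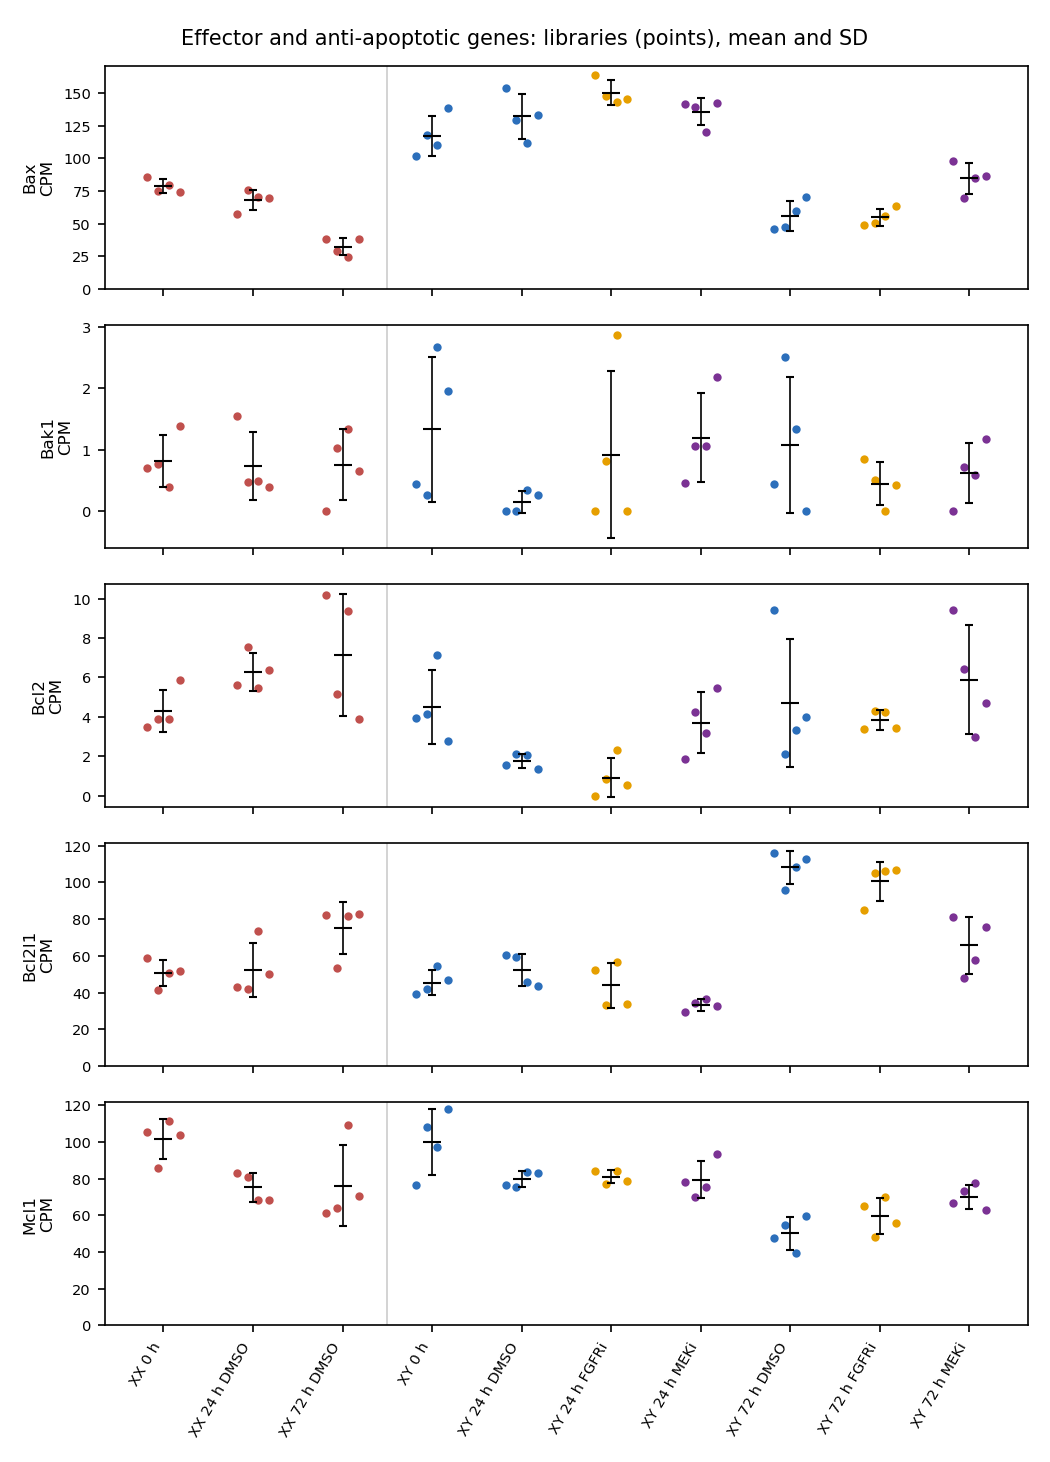
Levels of Bax, Bak1, Bcl2, Bcl2l1 and Mcl1 (CPM, linear axes) in each library, by group, with mean and SD of 4 libraries. Bax is at 24.8 to 70.3 CPM in the 72 h DMSO and FGFRi libraries and at 57.2 to 164 CPM in the 24 h libraries, and the means of Bcl2l1 are highest in XY 72 h DMSO (108 CPM) and XY 72 h FGFRi (101 CPM).

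Wider lists of the apoptosis pathway were read from the same fit. Beyond the 10 members, 8 of 15 other BCL2 relatives passed the filter. With either inhibitor at 24 h, 0 of the 8 were called by limma treat, against 0.262% of all genes with FGFRi and 0.164% with MEKi. An unadjusted p was under 0.05 for 1 with FGFRi and 0 with MEKi. Against no change, 1 of 8 had an FDR under 0.05 with each, against 6.33% of all genes with FGFRi and 5.89% with MEKi, and it was Bmf (log2 difference 1.22 with FGFRi and 0.80 with MEKi). At 72 h Bmf was lower with MEKi than in DMSO in every library (-0.77, 95% interval -1.10 to -0.44), not called (FDR 0.615 by limma), and the change in its response to MEKi between 24 h and 72 h, from which a constant pool difference cancels, was -1.57 (SE 0.280, FDR 0.0296). Bmf and, at 24 h, Trp53 were singled out after their values were seen. After 72 h in DMSO, 3 of 8 were called, against 41.0% of all genes tested. They were higher in XY, namely Bmf, a BH3-only gene (log2 difference 2.13, SE 0.291, FDR 6.99e-06), Bnip3l (1.18) and Bcl2l12 (1.13). The median over the 8 was 0.60, and it was 0.10 over all genes. Bmf was at 34.9 to 53.9 CPM in XY and 4.68 to 12.3 CPM in XX libraries. From 24 h to 72 h, across the pools, it rose in XY (log2 difference 1.37, FDR 0.00154) and fell in XX (-1.38, FDR 0.0301). In FGFRi, within pool 2, it differed by 0.04 (95% interval -0.31 to 0.39) between these times, and the interaction of sex with time was 2.75 (SE 0.372, FDR 4.33e-06 by limma).

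The p53 list held 14 genes, of which 12 were tested. Trp53, which encodes p53, an activator of Pmaip1, Bbc3 and Bax in many cell types, averaged 325 CPM in XY and, at the same 0 h, 240 CPM in XX libraries. After 24 h in DMSO the means were 210 CPM in XY and 105 CPM in XX, the time at which the sex difference was called (log2 difference 1.00, FDR 0.015 by limma). After 72 h they were 39.4 CPM in XY and 19.9 CPM in XX (0.97, FDR 0.123). From 24 h to 72 h in DMSO, across the pools, 3 of 12 genes of the list fell in XY, against 27.3% of all genes called, among them Trp53 (log2 difference -2.48, SE 0.156, FDR 8.11e-15 by limma) and Cdkn1a (-1.60, FDR 0.00016), and 2 of 12 fell in XX, against 22.2% of all genes called, Trp53 (-2.44) and Cdkn1a (-1.70). Both shares were below those of all genes. In XY FGFRi, within pool 2, Trp53 fell by 2.97 and Cdkn1a by 1.92. With either inhibitor at 24 h, 0 of 12 were called by limma treat (0.262% of all genes with FGFRi, 0.164% with MEKi) and 1 had an unadjusted p under 0.05. Against no change the FDR was under 0.05 for 3 of 12 with FGFRi (6.33% of all genes) and 1 of 12 with MEKi (5.89%). For Trp53, the difference was 0.24 (95% interval 0.01 to 0.47) for MEKi and 0.13 (-0.11 to 0.37) for FGFRi. With MEKi at 72 h, 2 of 12 were called, against 9.12% of all genes tested, both lower, and they were the p53 relatives Trp63 (-3.02, FDR 0.00199) and Trp73 (-2.19, FDR 0.0356). Trp53 itself was at 77.0 CPM with MEKi at 72 h (log2 difference from DMSO 0.98, FDR 0.0752), and was called higher than with FGFRi (1.34, FDR 6.96e-05).

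Of the apoptosome and caspase list, 16 of 17 genes were tested. After 72 h in DMSO, 6 of 16 were called between the sexes, 3 in each direction, against 41.0% of all genes tested, so the list did not stand above all genes. Among them were Casp9, the initiator caspase of the intrinsic pathway (log2 difference 2.37, SE 0.242, FDR 6.91e-09 by limma), and Htra2, a mitochondrial protease (-3.19, FDR 5.26e-11). At 24 h, 0 of 16 were called with either inhibitor by limma treat (0.262% of all genes with FGFRi, 0.164% with MEKi), and 0 had an unadjusted p under 0.05. Against no change the FDR was under 0.05 for 1 of 16 with FGFRi (6.33% of all genes) and 0 of 16 with MEKi (5.89%). With MEKi at 72 h, 1 of 16 was called, against 9.12% of all genes tested, and Htra2 was higher by 1.91 (SE 0.293, FDR 0.000584). Of the death receptor list, 6 of 10 genes were tested. At 72 h, 0 of 6 were called by limma treat for MEKi against DMSO, against 9.12% of all genes tested, and 2 had an unadjusted p under 0.05. Against no change 3 of 6 had an FDR under 0.05, against 45.8% of all genes, namely Fadd, Tnfrsf1a and Tradd. For FGFRi against DMSO all these counts were 0, against 0.00656% of all genes by limma treat and 1.08% against no change. In the direct comparison 3 of 6 were called, against 12.7% of all genes tested, all higher with MEKi than with FGFRi, namely Tradd (2.60), Tnfrsf1a (2.16) and Fadd (2.00, FDR 2.41e-06).

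Of the integrated stress response list, 9 of 10 genes were tested. In XX germ cells from 24 h to 72 h, across the pools, 3 of 9 were called, all lower, against 22.2% of all genes tested, among them Trib3 (log2 difference -4.20, SE 0.716, FDR 3.72e-05 by limma) and Asns (-2.25). Over the same interval in XY DMSO 3 of 9 were called, against 27.3% of all genes tested, with Ddit3 (2.20) and Ppp1r15a (0.94) higher and Atf4 (-0.96) lower. In XY FGFRi, within pool 2, 5 of 9 were called, 2 higher and 3 lower, against 33.5%. After 72 h in DMSO, 2 of 9 were called, against 41.0% of all genes tested, both higher in XY than in XX, Trib3 (3.67) and Asns (2.21). Of 13 regulators of the family, all were tested. From 24 h to 72 h in XY DMSO, across the pools, 3 of 13 were called, all lower, against 27.3% of all genes tested, namely Vdac1 (-2.54), Vdac2 (-1.05), the mitochondrial channel that BAK1 binds, and Usp9x (-0.96), a deubiquitinase of MCL1. In FGFRi, within pool 2, 5 of 13 were called, 1 higher and 4 lower, against 33.5% of all genes tested. Vdac1, Vdac2 and Usp9x differed by -1.70, -1.05 and -0.89 on the log2 scale, all called, and Dynll1 was called at -1.29.

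The genes whose group means of log2 CPM followed Pmaip1 most closely over the 10 groups were Eif2ak1 (Pearson's r 0.937), Mapk7 (0.923), Ddx52 (0.921), Mgst2 (0.920) and Cpsf3 (0.918). The 10 points share their pools and their 4 libraries each, and the genes were picked as the highest among all kept, so these values are a description of pattern. The size of the change was not alike. Group means ran from 1.17 to 66.5 CPM for Pmaip1, 46.1 to 67.35 for Eif2ak1 and 45.2 to 100.9 for Mapk7. They ran from 94.4 to 156 CPM for Ddx52, 0.30 to 17.0 for Mgst2 and 80.1 to 165 for Cpsf3. For Bax the likest were Polr3b (0.994), Alkbh8 (0.992) and Cks1b (0.987). For Bik they were Rdm1 (0.966), Dennd6a (0.965) and Gm4824 (0.964), and for Bcl2l1 they were Phf2 (0.977), Gm42067 (0.976) and Lingo4 (0.975).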

How the data were processed

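RNA of germ cells was measured in 40 libraries, 4 in each of 10 groups named by the library labels (sex, hours of culture, treatment, replicate). Per the authors' methods, an index and a unique molecular identifier were added at poly(A) priming, reads were demultiplexed with scPipe and aligned to GRCm39 with Rsubread, and reads with the same identifier were collapsed. The authors deposited whole-number counts per gene, not normalised or filtered. Genes were matched by Ensembl identifier to GENCODE M39, which named 40391 of 42422 genes. The 2031 others held 1.05% of the counts. Their code assigned reads to exons with the strand setting on. The GENCODE release and the versions used by the authors are not given in the sources used here.

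Genes were kept with filterByExpr of edgeR 4.0.16 (minimum count 10, minimum total 15), which left 15252. As in the study's methods, voomWithQualityWeights of limma 3.58.1 (R 4.3.3) was fitted to all 40 libraries with a mean for each group, and treat tested against a fold of 1.5, with Benjamini-Hochberg adjustment over all genes kept. Genes with an adjusted p (FDR) under 0.05 were called. Log2 differences and standard errors (SE) are from this fit, and CPM and SD from the libraries. Intervals are at the 0.95 level. The fit was tested on simulated counts for MEKi against DMSO at 72 h only, with no pool effect and no carried counts. Genes of low count were not among those changed, so calls at low counts were not tested by it. Alternatives were edgeR glmTreat, DESeq2 1.42.0 with a fold threshold, limma against no change with an observed fold over 1.5, no filter, RLE normalization, only the groups compared, a replicate block, removal of the estimated counts carried by shared indices, and each library left out.

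The 10 members and the wider lists were chosen with earlier results of these data known. From each wider list, the counts called and up to 3 called genes with the largest log2 difference per comparison could be named. Some listed genes were also named outside this rule, in other comparisons or by the test against no change. The 5 genes most correlated with Pmaip1 over group means could be named too, and 3 for other members. Totals of 1178953 to 5199153 counts per library limit precision. Several embryos were pooled per library, so p-values measure the spread between such pools of gonads.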

Additional observations from a re-analysis of the deposited data

Results flagged for a closer look

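Of 100 sets of 4 libraries tested (10 members in 10 groups), 8 had a library far from the other libraries of its group, by Dixon's criterion, and chance gives about 1 in 20 such sets. Pmaip1 was at 73.31 CPM in XY 24 h DMSO replicate 5 (others 63.8 to 64.6) and at 5.55 CPM in XY 72 h MEKi replicate 4 (others 3.13 to 3.47). Bcl2l11 was at 9.953 CPM in XY 72 h DMSO replicate 6 (others 7.94 to 8.06). Bax was at 120.1 CPM in XY 24 h MEKi replicate 4 (others 139 to 142). Bak1 was at 1.556 CPM in XX 24 h DMSO replicate 4, from 5 counts (others 0.40 to 0.50). Bcl2 was at 5.852 CPM in XX 0 h replicate 5 (others 3.497 to 3.88). Bcl2l1 was at 84.77 CPM in XY 72 h FGFRi replicate 2 (others 105 to 106.5) and at 53.69 CPM in XX 72 h DMSO replicate 4 (others 81.6 to 82.8).

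In 3 cases an effect differed between conditions by the interaction test of limma. Between 24 h and 72 h, the XY minus XX difference changed by 3.686 for Bbc3 (FDR 0.00163) and by -2.550 for Pmaip1 (FDR 0.0158, and 0.182 without XX 72 h DMSO replicate 8). Over the same interval the difference between FGFRi and DMSO changed by 2.606 for Pmaip1 (FDR 0.00386), where the pools and the groups cannot be told apart.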

How the results depend on the processing

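Over 18 comparisons and 8 alternatives other than leaving out a library, 124 of 144 counts of members called were within 1.5 times the reported count, and no difference of a member changed sign among those followed. Testing against no change with an observed fold over 1.5 gave more calls, since it asks less of each gene, namely 2 for XY v XX at 0 h, 4 for XY v XX at 24 h, 2 for XY 24 h v 0 h, 8 for XY 72 h v 24 h, 6 for XX 72 h v 24 h, 2 for FGFRi and 3 for MEKi at 24 h, 5 for MEKi v DMSO and 5 for MEKi v FGFRi at 72 h, 5 for FGFRi 72 h v 24 h, 5 for the interaction of sex with 72 h, and 2 for the MEKi interaction. edgeR glmTreat gave 4 for XY v XX at 24 h. DESeq2 gave 1 for XY v XX at 24 h, 1 at 72 h and 1 for XX 72 h v 24 h. With no filter, 0 members were called for XY 24 h v 0 h, 1 for MEKi v DMSO at 72 h and 0 for MEKi v FGFRi at 72 h. With only the groups compared, 1 was called for XX 72 h v 24 h. Apart from the alternatives whose construction is named, the cause was not tested.

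With 1 library left out, 161 of 176 counts were within 1.5 times. They ranged from 1 to 3 for XY v XX at 24 h, 2 to 3 at 72 h, 0 to 1 for XY 24 h v 0 h, 3 to 4 for XY 72 h v 24 h, 1 to 3 for XX 72 h v 24 h, 1 to 3 for MEKi v DMSO and 0 to 1 for MEKi v FGFRi at 72 h, 3 to 4 for FGFRi 72 h v 24 h and 1 to 3 for the interaction of sex with 72 h. Within a sex, the deviations of libraries with the same replicate number correlated by -0.092 to 0.119, and no comparison had every pair above 0.1. Few pairs per comparison shared a number, so a weak pairing could be missed. XX and XY libraries with the same number were not checked for pairing. A replicate block, set within each sex, had a consensus correlation of -0.037. It gave 1 member for XY v XX at 0 h, 2 at 24 h and 3 at 72 h, as without it. XX and XY libraries never shared a block, so these counts do not bear on pairing between the sexes. The block moved 1 member followed past the threshold, Bcl2 in FGFRi 72 h v 24 h (FDR 0.0472 by limma). Counts were low for Bak1, Bbc3 and Bcl2, and for Pmaip1 in XX germ cells, and the effect of depth was not tested.

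Over all genes, the counts called were higher against no change, from 457 to 2249 for XY v XX at 0 h, from 1524 to 4299 at 24 h, from 40 to 630 for FGFRi and from 25 to 556 for MEKi at 24 h, and from 1391 to 4748 for MEKi at 72 h. edgeR glmTreat gave 2360 for XY v XX at 24 h, 1101 for XX 24 h v 0 h (493 by limma treat), 65 for FGFRi and 39 for MEKi at 24 h.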
